A study of Homo sapiens with 20 samples.

Results

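This section describes 47 genes of extracellular matrix turnover in 20 lines of human biliary tract cancer: 24 matrix metalloproteinases (MMPs), 19 ADAMTS proteases and all 4 tissue inhibitors of metalloproteinases (TIMPs). They were chosen by gene symbol alone, as every entry named MMP, ADAMTS or TIMP with its number, and all 47 were found among the 24222 entries of the deposited count table. RNA was sequenced once per line, so the line is the replicate and every p-value measures the spread between lines. By source label, 7 lines are metastatic (6 from ascites and 1 from a liver metastasis) and 13 are primary. By subtype label, 7 lines are from the gallbladder, 5 from the extrahepatic bile ducts, 4 from the intrahepatic bile ducts and 3 from the ampulla of Vater, and OZ carries both bile duct labels and stayed out of the site comparisons. All lines were grown untreated in the same medium with serum. The lines are established cultures, and how far each still resembles its tumour was not measured.

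MMPs are zinc-dependent proteases that are made as inactive precursors and cut collagens, other matrix proteins and cell surface proteins. The ADAMTS proteases are secreted relatives with thrombospondin repeats, and they cut proteoglycans such as aggrecan and versican, trim the ends of procollagens, or, in the case of ADAMTS13, cut von Willebrand factor. TIMPs bind the active site of these enzymes and block them. In biliary tumours much of this machinery is known to come from stromal cells.

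Totals were 10.47 to 15.41 M counts per line (M for mega), and 3 counts, the most that an observed 0 was taken to allow, correspond to 0.195 to 0.287 counts per M counts (CPM). HuH28, labelled as an intrahepatic bile duct line, held little of the epithelial markers: 0.257 CPM of EPCAM and 1.03 CPM of KRT19, against medians of 409 and 1440 CPM over all 20 lines. It was also lowest of all lines in KRT8, at 95.4 CPM, and 11 of 28 epithelial markers reached 1 CPM in it. For several differences that rest largely on HuH28, the value without it is given.

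A count was seen in some line for 46 of the 47 genes, all but MMP27. The highest line reached 1 CPM for 39 genes, 10 CPM for 32 and 100 CPM for 17. Only 7 genes stood at 1 CPM or more in all 20 lines: MMP14, MMP15, MMP19, MMP24, ADAMTS13, TIMP1 and TIMP2. Lines held 14 (SNU-1196 and SNU-245) to 32 (TGBC2TKB) of the 47 genes at 1 CPM or more, with a median of 19. By contrast 18 genes were carried by few lines, in that the highest line had at least 20 CPM and at least 20 times the level of the median line.

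**Figure D1:**
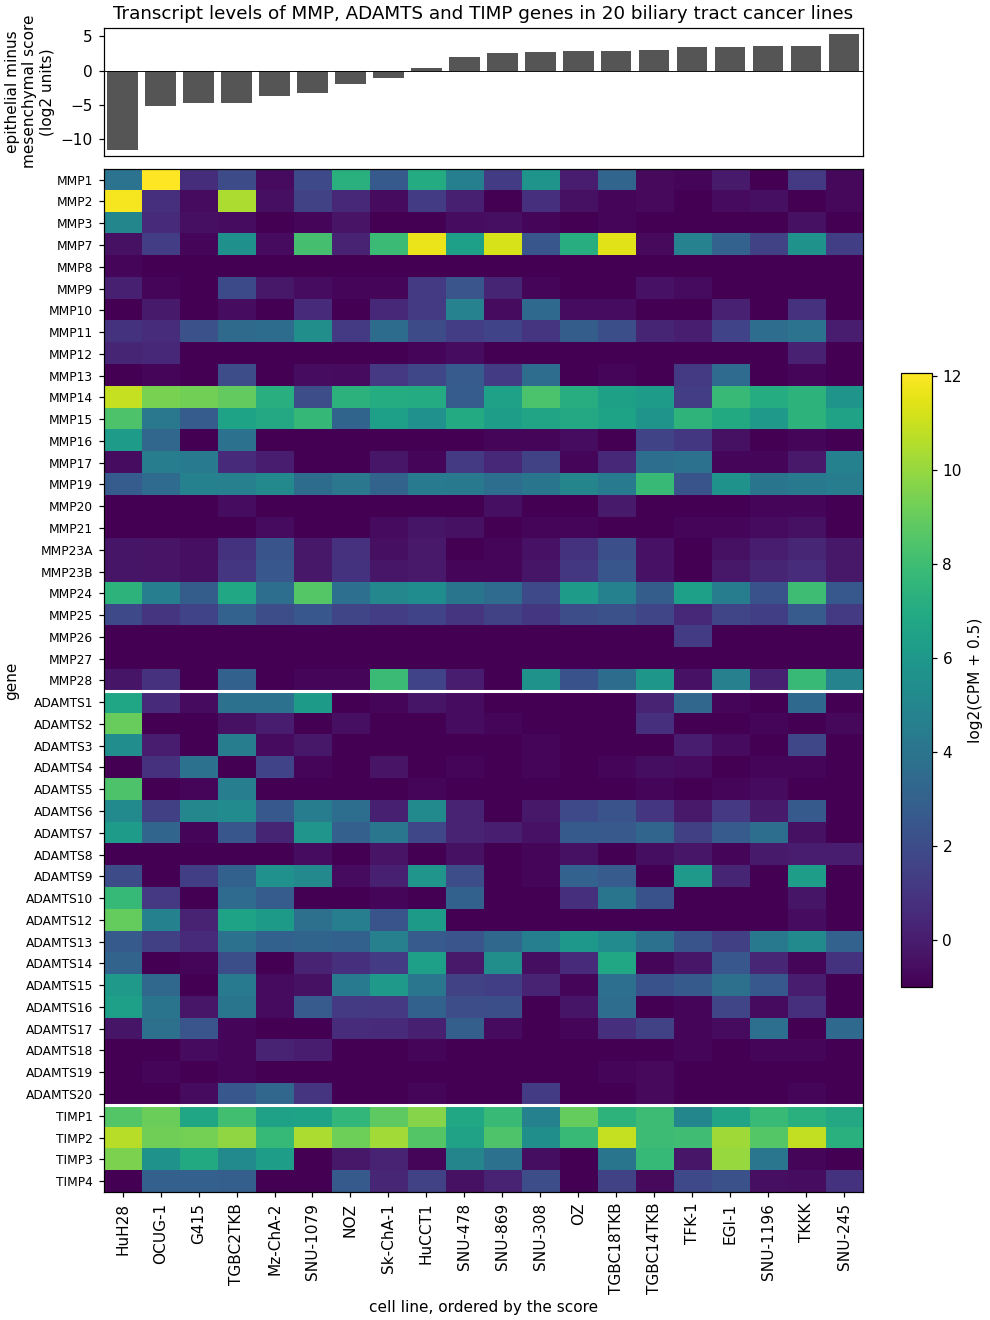
Level of each of the 47 genes (rows, log2 of CPM + 0.5) in each of the 20 lines (columns, ordered by the epithelial minus mesenchymal score plotted above in log2 units). TIMP1, TIMP2, MMP14, MMP15 and MMP19 are filled in nearly all columns, while MMP2, MMP7, MMP1 and most ADAMTS genes are high in a few lines and dark in the rest.

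To compare genes with each other, CPM was divided by transcript length in kb. On this per-length scale MMP7 was the leading MMP in 7 lines, MMP14 in 5, MMP1, MMP2 and MMP15 in 2 each, and MMP19 and MMP28 in 1 each. The leading MMP held up to 97.5% of a line's summed MMP level (MMP7 in SNU-869), with a median of 55.5%, and the share was lowest in SNU-245. Which transcript led differed from line to line.

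**Figure D2:**
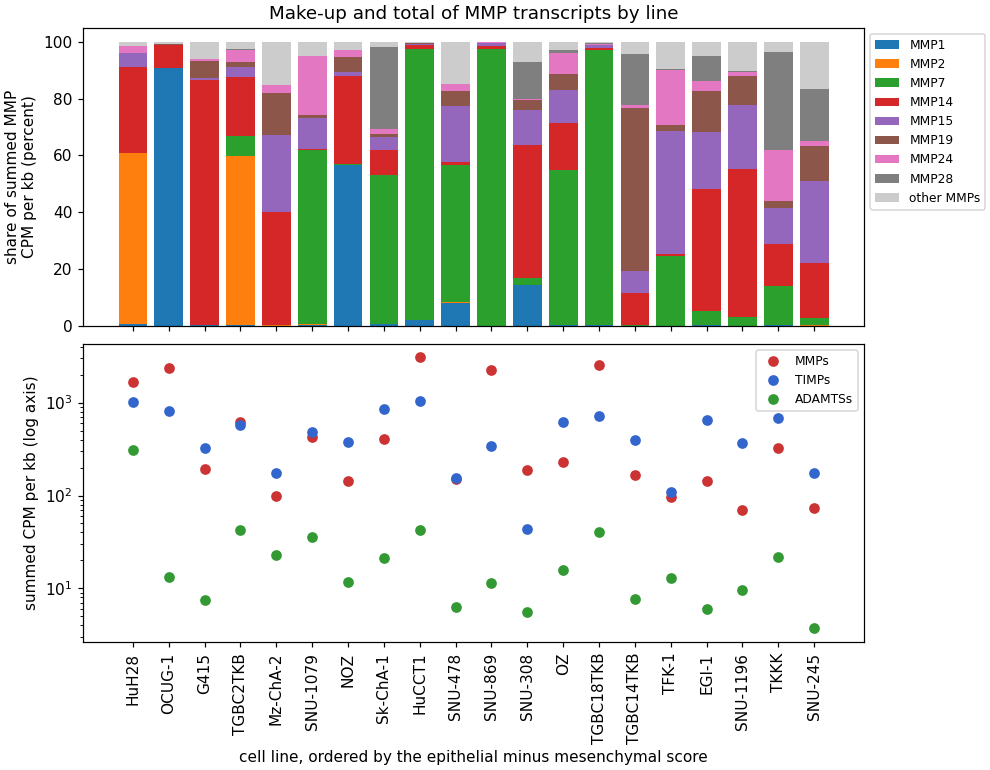
Top, share of each line's summed MMP level (CPM per kb) taken by 8 named MMPs and by all other MMPs together; bottom, summed CPM per kb of MMPs, TIMPs and ADAMTS genes on a log axis, with lines ordered by the epithelial minus mesenchymal score. MMP7 fills almost the whole bar in HuCCT1, SNU-869 and TGBC18TKB, MMP1 in OCUG-1 and MMP14 in G415.

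MMP7, or matrilysin, is a short MMP that lacks the hemopexin domain and is typical of glandular epithelium. Its level was 3285 CPM in HuCCT1, 2798 in TGBC18TKB and 2469 in SNU-869, and then 296 in SNU-1079, 241 in Sk-ChA-1 and 140 in OZ. The other 14 lines had at most 82.7 CPM, down to 0.0725 CPM in G415. The top lines thus came from the intrahepatic and ampullary groups, and the gallbladder lines had at most 47.1 CPM.

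MMP1, or interstitial collagenase, cuts fibrillar collagen. OCUG-1 had 4230 CPM (exact Poisson 95% interval 4190 to 4270, counting error only), NOZ 158 and HuCCT1 128, followed by SNU-308 with 53.5 and SNU-478 with 24.3 CPM. The remaining 15 lines had at most 15.2 CPM, and SNU-1196 had no count. The gene has 1 overlapping neighbour in the table, the pseudogene WTAPP1, which was also highest in OCUG-1, at 144 CPM. The strand setting of the authors' counting is not known here, so reads of such pairs cannot be told apart.

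MMP7 and MMP1 lie in 1 cluster on chromosome 11 with the genes in the order MMP7, MMP20, MMP27, MMP8, MMP10, MMP1, MMP3, MMP12 and MMP13. MMP10 (stromelysin 2) had 27.3 CPM in SNU-478 and 10.6 in SNU-308, MMP13 (collagenase 3) had 12.1 CPM in SNU-308 and 11.2 in EGI-1, and MMP3 (stromelysin 1) had 31.3 CPM in HuH28 and at most 1.01 elsewhere. MMP8 had a single count in HuH28, MMP20 at most 0.451 CPM and MMP12 at most 0.932 CPM. Over the 20 lines, log2 levels of MMP10 and MMP13 had r = 0.65 (rho = 0.67, and r = 0.45 without SNU-308 and SNU-478), MMP1 and MMP10 had r = 0.43 (rho = 0.53, and r = 0.70 without NOZ and OCUG-1). MMP7 had r = 0.39 with MMP10 (rho = 0.65, and r = 0.41 without TGBC18TKB and HuCCT1), 0.40 with MMP13 (rho = 0.53, and 0.46 without the same lines) and 0.14 with MMP1 (rho = 0.24, and -0.02 without them). These are descriptions over lines that each contribute 1 library.

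The start regions of these genes were read for a loose form of the AP-1 motif, TGANTCA with any base at N, and for the TATA motif, TATAAA, on both strands. Windows of 300 bases (250 before to 50 after the start) were available from RefSeq (GRCh38.p14) for 27 of the 47 genes. AP-1 was found in 4 of the 27, which is 14.8% against 7.71% of all 35116 windows, and TATA in 7, which is 25.9% against 11.5%. Only MMP7, MMP10 and MMP20 held both motifs, as did 1.31% of all windows. The 120 bases before the start are printed for MMP7, the MMP that led in the largest number of lines, for its cluster neighbour MMP10, which has the same 2 motifs, and for ADAMTS12, the gene tied most closely to the mesenchymal end below. Capitals mark the matches, and all 3 lie on the minus strand, MMP7 at chr11:102530748-102530867, MMP10 at chr11:102780629-102780748 and ADAMTS12 at chr5:33891991-33892110.
MMP7: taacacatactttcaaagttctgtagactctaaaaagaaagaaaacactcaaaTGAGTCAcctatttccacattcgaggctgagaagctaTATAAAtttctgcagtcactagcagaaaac
MMP10: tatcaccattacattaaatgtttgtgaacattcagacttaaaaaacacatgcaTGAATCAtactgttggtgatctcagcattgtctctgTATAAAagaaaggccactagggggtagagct
ADAMTS12: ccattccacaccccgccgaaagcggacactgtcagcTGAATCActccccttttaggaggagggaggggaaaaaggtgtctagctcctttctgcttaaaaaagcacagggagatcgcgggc
In both MMP genes the AP-1 match starts 67 bases before the start, but its middle base differs between them. The TATA match starts 30 bases before it in MMP7 and 31 in MMP10. ADAMTS12 has an AP-1 match 84 bases before the start and no TATA match in this window. A match is a description of letters, and no binding was measured.

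MMP2, or gelatinase A, cuts basement membrane collagen and denatured collagen and is typical of mesenchymal cells. HuH28 had 3760 CPM and TGBC2TKB 1375 CPM, while the other 18 lines had at most 2.46 CPM (SNU-1079). The other gelatinase, MMP9, was low throughout, at most 4.99 CPM (SNU-478).

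Of the membrane-bound MMPs, MMP14, MMP15 and MMP24 reached 1 CPM in all 20 lines, MMP17 in 7 and MMP16 in 5. MMP14 (MT1-MMP), which activates the MMP2 precursor at the cell surface, had 1879 CPM in HuH28, 696 in OCUG-1, 621 in G415 and 478 in TGBC2TKB, but 6.42 in SNU-478, 3.78 in SNU-1079 and 2.12 in TFK-1. MMP15 (MT2-MMP) had a median of 94.8 CPM and ranged from 6.52 in G415 to 342 in HuH28, so G415 was near the top in MMP14 and lowest in MMP15. MMP24 (MT5-MMP) was highest in SNU-1079 (389 CPM), TKKK (254) and HuH28 (170). MMP16 (MT3-MMP) had 74.5 CPM in HuH28, 14.8 in TGBC2TKB, 9.56 in OCUG-1 and at most 2.73 elsewhere. MMP17, anchored by a lipid tail, had 26.1 CPM in SNU-245, 22.8 in OCUG-1 and 20.4 in G415, with 14.3 in TFK-1 and 12.7 in TGBC14TKB and at most 2.40 in the others.

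Across the 20 lines, MMP14 and its substrate MMP2 had r = 0.42 (rho = 0.40, and r = 0.55 without SNU-1079 and TFK-1). High MMP14 without MMP2 was seen in OCUG-1, with 696 CPM of MMP14 and 1.17 of MMP2, and in G415, with 621 and 0.145 CPM. Of the other secreted MMPs, MMP28 (epilysin) had 240 CPM in Sk-ChA-1 and 224 in TKKK, and TGBC14TKB and SNU-308 came next, the second of them with 50.6 CPM.

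MMP19 stood apart in 1 line: TGBC14TKB had 223 CPM and all others 4.67 to 49.6 CPM. MMP11 (stromelysin 3), usually a fibroblast product in carcinomas, had 42.7 CPM in SNU-1079 and at most 15.2 elsewhere. MMP23A is annotated as a pseudogene and is a near copy of MMP23B, with equal counts in 9 lines, so neither is interpreted alone.

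Of the ADAMTS genes, 6 reached 100 CPM in some line, and HuH28 was that line for 5 of them. The procollagen N-proteinase ADAMTS2 had 518 CPM in HuH28 and at most 1.26 elsewhere, and its relative ADAMTS3 had 41.9 CPM in HuH28 and 22.4 in TGBC2TKB. The aggrecanase ADAMTS5 had 343 CPM in HuH28, 23.2 in TGBC2TKB and at most 0.152 in the other lines. ADAMTS10, which binds fibrillin, had 216 CPM in HuH28 and at most 16.1 elsewhere. The third procollagen N-proteinase, ADAMTS14, had a different set of lines: 110 CPM in TGBC18TKB, 83.2 in HuCCT1 and 42.6 in SNU-869, and 8.31 in HuH28.

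Those 3 lines also held the highest MMP7 levels, a match chosen after the values were seen. ADAMTS1, a versican-cutting enzyme, had 104 CPM in HuH28 and 69.1 in SNU-1079. ADAMTS9, another versicanase, had 77.1 CPM in TKKK, 63.0 in TFK-1, 55.5 in HuCCT1 and 47.8 in Mz-ChA-2. ADAMTS4, the other aggrecanase, had 14.6 CPM in G415 and at most 2.57 elsewhere. ADAMTS13 was at 1.01 to 60.8 CPM, but overlaps REXO4 (23.3 to 67.9 CPM). HuH28 held the highest level of 15 of the 47 genes, 6 MMPs and 9 ADAMTS genes, and of 8.68% of the 22153 entries with any count.

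Of the inhibitors, TIMP1 and TIMP2 were above 10 CPM in every line. TIMP1 ranged from 26.0 CPM in SNU-308 to 825 in HuCCT1, and TIMP2, which also helps MMP14 activate MMP2, from 45.5 CPM in SNU-308 to 1891 in TGBC18TKB. TIMP3, which is bound to the matrix and also blocks ADAMTS enzymes, was split: EGI-1 had 1035 CPM, HuH28 706, TGBC14TKB 214 and G415 121, while 9 lines had under 1 CPM. TIMP4 had at most 7.61 CPM. Per length, TIMP1 was the leading inhibitor in 13 lines and TIMP2 in 7. Summed per length, MMPs exceeded TIMPs in 7 lines, with ratios from 0.190 in SNU-1196 to 6.56 in SNU-869 and a median of 0.742. The ratio compares transcripts and says nothing of protein or activity.

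For anatomical site, edgeR's quasi-likelihood test called none of the 35 genes that passed the count filter in the joint test of the 4 sites, where 0.00602% of all 16615 genes tested were called. None was called either in the contrasts of gallbladder (0% of all genes called), extrahepatic (0%), intrahepatic (0%) and ampullary lines (0.00602%) with the mean of the other sites, or of intrahepatic with extrahepatic lines (0%). At an unadjusted p under 0.05 there were 13 of 35 in the joint test, against 10.7% of all genes. The counts were 12 for gallbladder lines (12.3% of all genes), 6 for extrahepatic lines (7.01%), 14 for intrahepatic lines (9.47%), 6 for ampullary lines (5.25%) and 11 for intrahepatic against extrahepatic lines (9.40%). The other 12 genes had too few counts to be tested.

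DESeq2, run as an alternative, called more genes. In the joint test it called ADAMTS14, ADAMTS3, ADAMTS6, MMP24 and MMP7 (5 of 35, against 1.87% of all genes). It called ADAMTS14, ADAMTS4 and MMP7 in gallbladder lines (3, against 2.36%), ADAMTS10 and ADAMTS6 in extrahepatic lines (2, against 1.12%), and ADAMTS1, ADAMTS3, MMP17 and MMP24 in intrahepatic lines (4, against 1.63%). ADAMTS12 was its only call in ampullary lines (1, against 0.82%), and ADAMTS10, ADAMTS6 and MMP17 were its calls in intrahepatic against extrahepatic lines (3, against 1.91%). None of these passed edgeR's test, so these calls depend on the choice of tool. ADAMTS4 also passed the count filter only through gallbladder lines.

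In intrahepatic lines the genes of smallest p were MMP24, ADAMTS12 and MMP2. MMP24 had 389, 254, 170 and 39.5 CPM in the 4 intrahepatic lines. Gallbladder lines had 3.22, 12.7 and 113 CPM (lowest, median, highest), extrahepatic lines 4.41, 5.58, 22.3, 32.9 and 83.1 CPM, and ampullary lines 11.3, 16.5 and 26.4 CPM. Of the 4 intrahepatic lines 3 lay above every line of the other sites, and HuCCT1 lay within them (log2 difference 3.19 ± 0.76, edgeR adjusted p = 0.151). ADAMTS12 had 496, 69.4, 13.6 and 0.166 CPM in intrahepatic lines, 0, 23.2 and 94.0 CPM in gallbladder lines (lowest, median, highest), 4.70 CPM in 1 extrahepatic line and no count in the other 4, and no count in the 3 ampullary lines (7.80 ± 2.04, edgeR adjusted p = 0.164). MMP2 gave 9.01 ± 2.46 (edgeR adjusted p = 0.171), from 3760 CPM in HuH28 against 2.46, 1.88 and 0 CPM in the other intrahepatic lines. Without HuH28 the difference was -0.34 for MMP2, 5.41 for ADAMTS12 and 3.25 for MMP24.

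Against extrahepatic lines, intrahepatic lines had ADAMTS6 at 37.9, 36.9, 22.4 and 6.04 CPM, and the 5 extrahepatic lines had 1.75, 0.597, 0.456, 0.425 and 0 CPM. The log2 difference was 5.31 ± 1.48 (edgeR adjusted p = 0.411). ADAMTS6 is a fibrillin-linked protease known from heart development in mice. The same contrast gave 11.08 ± 3.13 for ADAMTS10 and 12.78 ± 3.88 for MMP2 (edgeR adjusted p = 0.411 for both). Without HuH28 these 2 differences were 2.25 and 3.42, while that of ADAMTS6 was 5.04. In extrahepatic lines against the other sites the smallest p were those of ADAMTS10 (-8.82 ± 2.84, adjusted p = 0.528), ADAMTS6 (-3.69 ± 1.28, 0.550) and MMP9 (-4.06 ± 1.62, 0.632), by edgeR. Without HuH28 the ADAMTS10 difference was -5.88 (edgeR adjusted p = 0.626). Extrahepatic lines had at most 0.0746 CPM of ADAMTS10 and 0.142 CPM of MMP9, and each other site had lines at or near 0 as well.

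**Figure D3:**
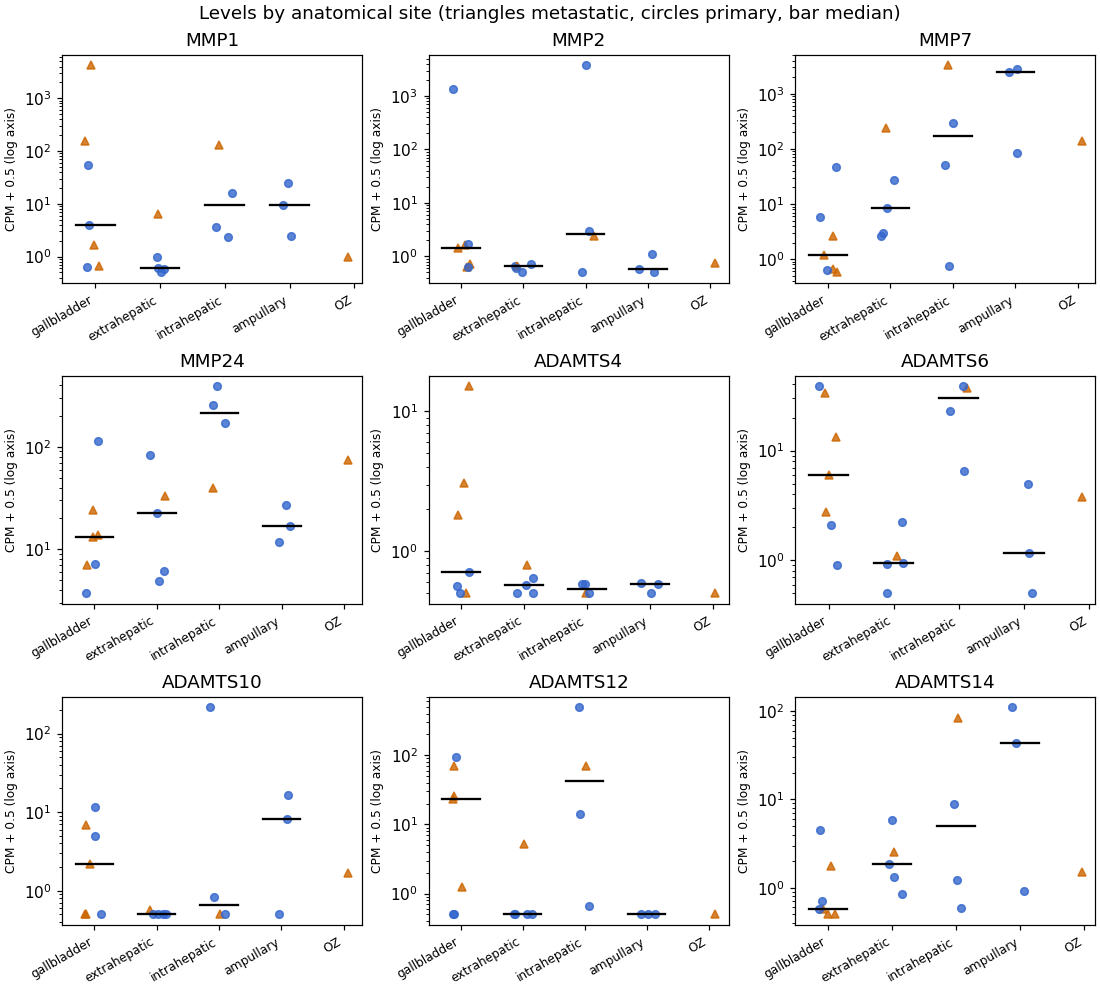
Level (CPM + 0.5, log axis) of 9 genes in each line by anatomical site, with triangles for metastatic and circles for primary lines, bars at the median and OZ apart. For MMP24, 3 intrahepatic lines lie above every line with another single site, the top of MMP7 is shared by intrahepatic and ampullary lines, and the highest MMP2 and ADAMTS10 points are both HuH28.

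In gallbladder lines the smallest p were those of ADAMTS4, ADAMTS20 and MMP1. ADAMTS4 had 0, 0.210 and 14.6 CPM in gallbladder lines (lowest, median, highest) and at most 0.298 CPM in any line of another site (log2 difference 5.21 ± 1.27, edgeR adjusted p = 0.197). All 3 lines with at least 1 CPM were gallbladder lines, so ADAMTS4 passed the count filter only through the group where it was high. Its rank by p is therefore no support for a site difference. ADAMTS20 had 9.26 CPM in Mz-ChA-2, 5.34 in TGBC2TKB and 1.99 in SNU-308, and at most 1.48 CPM outside the gallbladder group (6.13 ± 1.57, edgeR adjusted p = 0.222). SNU-1079 alone reached 1 CPM outside that group, so ADAMTS20 too passed the count filter only because of gallbladder lines. Its rank is likewise no support for a site difference. MMP1 gave 6.25 ± 1.83 (edgeR adjusted p = 0.225) with 0.140, 3.54 and 4230 CPM in gallbladder lines, so the groups overlapped, and 2.08 without OCUG-1. MMP7 gave -5.79 ± 1.85 in gallbladder lines (edgeR adjusted p = 0.248). In ampullary lines MMP7 had 2798, 2469 and 82.7 CPM, and the difference from the mean of the other sites was 4.57 (95% interval 1.63 to 7.51). ADAMTS14 had 110, 42.6 and 0.423 CPM there (3.93 ± 1.29), and the edgeR adjusted p was 0.857 for both. ADAMTS12 had the third smallest p (-10.68 ± 4.26, 0.923).

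For origin, none of the 27 genes tested was called by edgeR (0% of 14843 genes called), and 4 had an unadjusted p under 0.05, against 7.73% of all genes. DESeq2 also called none (1.22% of all genes). MMP1 had 0.156, 5.89 and 4230 CPM in the 7 metastatic lines (lowest, median, highest) and 0, 1.98 and 53.5 CPM in the 13 primary lines. The groups overlapped, and OCUG-1, NOZ and HuCCT1 lay above every primary line (log2 difference 6.20 ± 1.61, edgeR adjusted p = 0.352). Without OCUG-1 it was 2.47 (edgeR adjusted p = 0.770). TIMP1 had 86.8, 456 and 825 CPM in metastatic lines and 26.0, 157 and 382 CPM in primary lines (1.21 ± 0.47, edgeR adjusted p = 0.547). MMP2 was at most 1.88 CPM in metastatic lines, against 3760 and 1375 CPM in 2 primary lines and at most 2.46 in the rest (-9.20 ± 3.08, edgeR adjusted p = 0.461). DESeq2 turned this difference to 0.58. MMP15 had 6.52, 47.2 and 116 CPM in metastatic lines and 53.9, 98.6 and 342 CPM in primary lines (-1.25 ± 0.52, edgeR adjusted p = 0.570).

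**Figure D4:**
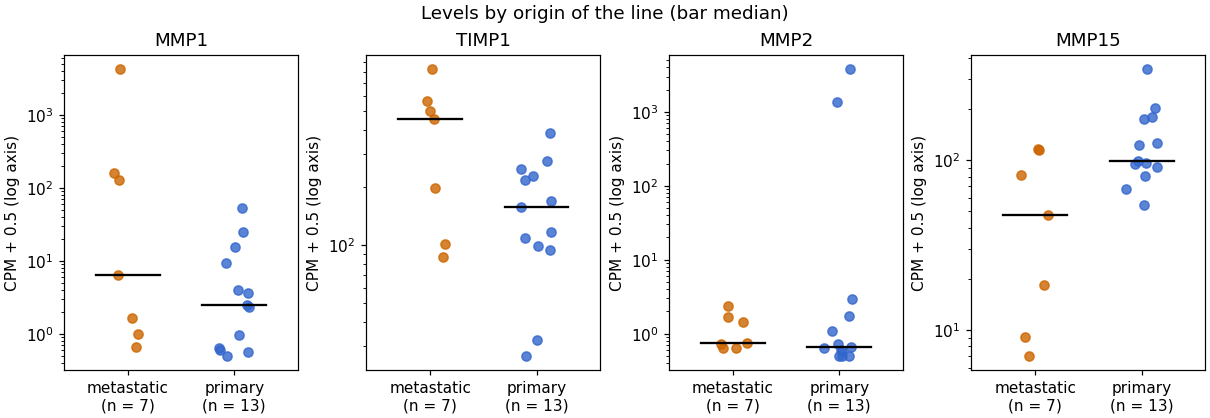
Level (CPM + 0.5, log axis) of 4 genes in 7 metastatic lines (left) and 13 primary lines (right), with bars at the median. The points of the groups overlap in all 4 panels, with 3 metastatic lines above all primary lines in MMP1.

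The lines were also ordered by how epithelial or mesenchymal their transcripts are. The score used is the mean centred log2 CPM of 28 epithelial genes minus that of 26 mesenchymal genes, none of them one of the 47, with a lowest value of -11.57 (HuH28) and a highest of 5.42 (SNU-245). Of the 35 genes tested with limma, 6 rose toward the mesenchymal end, which is 17.1%, against 4.28% of all 16561 genes (8.34% in either direction), and none rose toward the epithelial end (4.06% of all genes). Of the 6, 5 were ADAMTS genes (of 14 tested), 1 was an MMP (of 17) and none was a TIMP (of 4). The median slope of the 35 was -0.11, against -0.0012 over all genes, and 11 of the 35 had an unadjusted p under 0.05 (22.6% of all genes). EdgeR on the same score called 8 (8.07% of all genes): ADAMTS12, ADAMTS16, ADAMTS3 and MMP2, which limma also called, and ADAMTS4, MMP1, MMP14 and MMP16. ADAMTS4 reached 1 CPM only in G415, Mz-ChA-2 and OCUG-1, all with negative scores. It passed the count filter only through these lines, so its call is no support for a link with the score. The limma calls of ADAMTS6 (edgeR adjusted p = 0.0598) and ADAMTS1 (0.11) were lost under edgeR.

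ADAMTS12, which cuts cartilage oligomeric matrix protein, had the steepest slope, -0.82 ± 0.11 log2 per unit of score (limma adjusted p = 7.17e-05). It had 496 CPM in HuH28, 94.0 in TGBC2TKB, 69.4 in HuCCT1, 69.1 in Mz-ChA-2, 25.6 in OCUG-1, 23.2 in NOZ, 13.6 in SNU-1079, 4.70 in Sk-ChA-1 and 0.725 in G415. In the 11 lines of highest score it had no count in 10 and 0.166 CPM in TKKK. All 9 lines of lowest score thus lay above all 11 others. This cut was placed by the values of ADAMTS12 itself, and the share of all genes that split this way is not given. It was called in each of 28 alternative fits, and without HuH28 the slope was -0.85 (limma adjusted p = 0.000701).

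MMP2 had a slope of -0.67 ± 0.14 (limma adjusted p = 0.00436), which without HuH28 was -0.41 (adjusted p = 0.163). ADAMTS6 had 38.1 CPM in TGBC2TKB, 37.9 in HuH28, 36.9 in HuCCT1, 32.8 in G415, 22.4 in SNU-1079 and 12.7 in NOZ, and at most 6.04 CPM in the others (slope -0.41 ± 0.10, limma adjusted p = 0.012, and -0.46 with 0.0383 without HuH28). With site as a covariate its slope was -0.24 (adjusted p = 0.290). ADAMTS16 (-0.37 ± 0.11, 0.0403), ADAMTS3 (-0.34 ± 0.10, 0.0406) and ADAMTS1 (-0.44 ± 0.13, 0.046) passed narrowly by limma. Without HuH28, ADAMTS16 had an adjusted p of 0.259 and ADAMTS1 of 0.300, and ADAMTS3 did not pass the count filter, nor did it without TGBC2TKB or without TKKK. MMP16 just missed the threshold (-0.35 ± 0.11, limma adjusted p = 0.0558). Its r with the score was -0.575 over all 20 lines (rho = -0.103), and -0.102 without HuH28 and OCUG-1. At the other end MMP28 had 0.36 ± 0.16 (adjusted p = 0.197) and MMP7 0.35 ± 0.22 (adjusted p = 0.368).

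**Figure D5:**
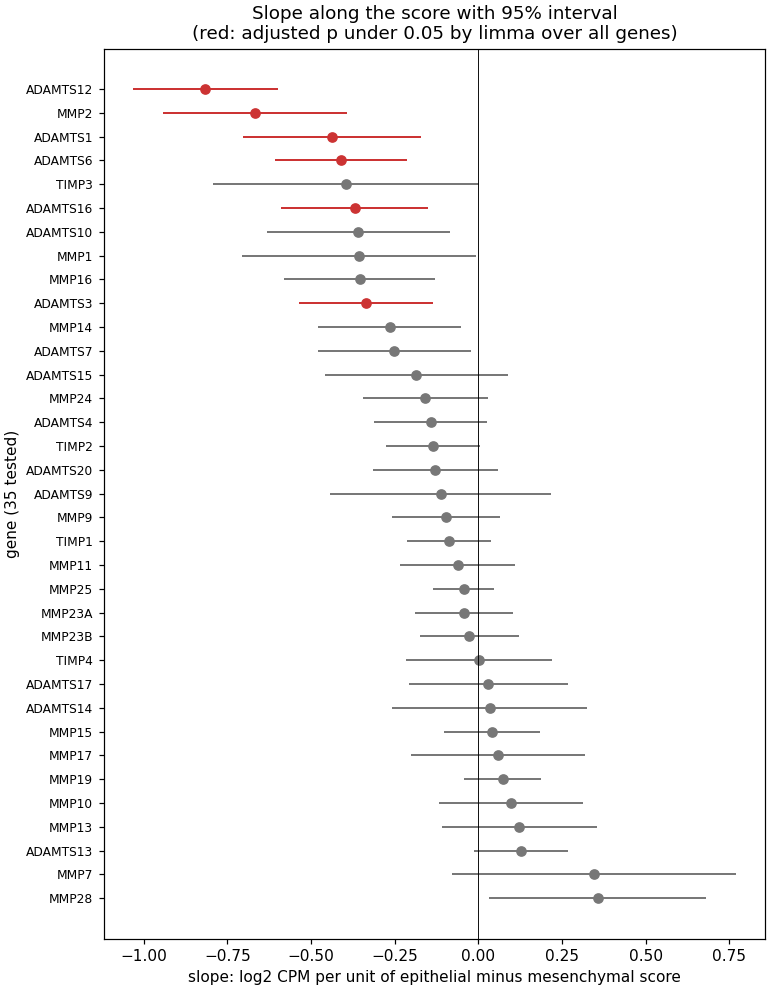
Slope of log2 CPM per unit of the epithelial minus mesenchymal score for the 35 genes tested, with 95% intervals, in red where the limma adjusted p was under 0.05. The 6 red genes, ADAMTS12 and MMP2 first, all lie left of 0, which is higher toward the mesenchymal end.

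Within repositories, r of ADAMTS12 with the score was -0.91 in the 6 KCLB lines and -0.59 in the 6 RIKEN lines. Over all 20 lines it was -0.86 (rho = -0.79, and r = -0.81 without HuH28 and OCUG-1). ADAMTS6 had -0.92 and -0.81 within the same repositories, and MMP2 -0.74 and -0.63. Only SNU-1079 of the KCLB lines had a negative score. It was the highest KCLB line in ADAMTS12 (13.6 CPM, no count in the others), ADAMTS6 (22.4 CPM) and MMP2 (2.46 CPM). The KCLB values thus rest largely on this 1 line. When Mz-ChA-2, SNU-245 and HuH28 were all left out, 1 gene was called, ADAMTS12 (slope -0.85, limma adjusted p = 0.00383), where 2.75% of all genes were called. Leaving out HuH28 alone left 2 calls, ADAMTS12 and ADAMTS6 (4.24% of all genes), and site as a covariate left ADAMTS12 and ADAMTS16 (2.14%).

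Markers of other cells were read along the same score. Of 8 fibroblast markers 5 were tested, and PDGFRA (-0.51) and MFAP4 (-0.30) rose toward the mesenchymal end. The sum of all 8 was 312 CPM in HuH28 with DPT and PI16 at 0, 27.8 CPM in TGBC2TKB, 0.249 CPM in the lowest line (OZ) and 443 CPM in the highest (TKKK). TKKK and TGBC14TKB (373 CPM) lie toward the epithelial end, with scores of 3.67 and 3.06, so the sum did not follow the score. These sums rest on few markers, as only 2 of the 8 reached 1 CPM in TKKK and 1 in TGBC14TKB. HuH28 had 4 at 1 CPM or more, the most of any line, and the highest PDGFRA (133 CPM) and FAP (128 CPM). Of 5 endothelial markers tested none was called, and of 5 immune markers CD68 was (-0.22). Their part in the result was not tested.

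Partners of these enzymes were read from lists chosen with earlier results known. Over all genes, 4.28% were called toward the mesenchymal end and 4.06% toward the epithelial end. Among other inhibitors and clearance receptors, 3 genes that rose toward the mesenchymal end were RECK, a membrane-anchored MMP inhibitor (-0.56 ± 0.09, limma adjusted p = 0.000635), LRP1, the endocytic receptor that clears MMPs (-0.32 ± 0.05, 0.00068), and SPOCK1, a matrix proteoglycan (-0.61 ± 0.14, 0.0107). All 3 were highest in HuH28, at 69.3, 2030 and 2060 CPM against medians of 2.19, 69.1 and 1.3. Slopes of these partner genes without HuH28 are not given. Of 6 ADAMTS-like genes, which resemble ADAMTS proteins but lack the protease domain, ADAMTSL3 and ADAMTSL1 rose the same way. ADAMTSL3 reached 1 CPM only in SNU-1079 (71.7 CPM), HuH28 (59.8) and TGBC2TKB (47.0), all with negative scores. It passed the count filter only through these lines, so its call is no support. Of 7 tested substrates and matrix partners 4 rose toward the mesenchymal end: BGN, TGFB1, VCAN and COL4A1. BGN was also highest in HuH28 (1020 CPM, median 0.169 CPM). VCAN, cut by ADAMTS1 and ADAMTS9, had 2430 CPM in HuH28 and 1380 in HuCCT1, with a median of 4.84 CPM. Of 13 activating proteases and partners only TMPRSS2 was called, toward the epithelial end (0.60 ± 0.13, limma adjusted p = 0.00543). Of 14 AP-1 and ETS factors, FOS was higher toward the epithelial end (0.28 ± 0.07, 0.0138) and ETS1 toward the mesenchymal end (-0.25 ± 0.06, 0.021), by limma.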

How the data were processed

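RNA from 20 cell lines was sequenced with a stranded mRNA kit, per the labels' protocols. The authors deposited raw counts per RefSeq entry. Trimmomatic, TopHat2 2.0.8, Picard 1.69 and featureCounts are named in the submitters' processing notes, and the strand setting is not given in the sources used here. Of 24222 entries, 23204 were named from a RefSeq table and 347 from GENCODE metadata, and 671 (1.53% of counts) were not named. The members, lists and tests were chosen with earlier results of these data known.

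CPM used TMM-scaled totals. Site (19 lines) and origin (20 lines) were fitted with edgeR 4.0.16 (filterByExpr, robust quasi-likelihood) and the score with limma 3.58.1 (trend, robust, log2 CPM with prior count 2), in R 4.3.3. Calls used Benjamini-Hochberg adjusted p under 0.05 over all genes tested. Errors after ± are standard errors for limma. For edgeR they are the log2 difference divided by the square root of the test's F value, an approximation and not a fitted standard error. The interval given for MMP7 in ampullary lines was built from such a value. Alternatives included DESeq2 1.42.0, RLE scaling, other filters and priors, covariates and each line left out. The fits that leave out Mz-ChA-2, SNU-245 and HuH28, correlations within repositories and fits on primary lines were chosen after seeing the data. Levels per kb used GENCODE transcript lengths for 45 genes. The fits were tested on simulated data. Genes were named when called, among the 3 of smallest p per comparison, at 100 CPM or more in some line, carried by few lines, or TIMPs; others appear as ranges or were chosen after their values were seen. Poisson intervals and the floor of 3 counts cover counting error only. Some items of the partner lists are not reported here.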

Additional observations from a re-analysis of the deposited data

Results flagged for a closer look

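Within groups of 4 to 7 lines, 101 groups of levels were examined for a line far from the rest on the log2(CPM + 0.5) scale, and 25 flags fell on 19 genes and 10 lines. Chance flags about 1 in 20 groups, or 5.05 here. The 29 genes examined were chosen in part for being high in few lines, so the number of flags cannot be judged against that figure. Many levels are also tied near 0, and genes and groupings share lines. No explanation was tested.

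HuH28 stood above the other intrahepatic lines in 6 genes: ADAMTS2 (518 CPM, next line 0), TIMP3 (706, next 0.0853), ADAMTS5 (343, next 0.0853), ADAMTS10 (216, next 0.331), MMP16 (74.5, next 0.0828) and MMP3 (31.3, next 0.248). Among intrahepatic lines SNU-1079 stood apart in ADAMTS20 (1.48 CPM) and HuCCT1 in TIMP4 (2.39 CPM). TGBC2TKB stood above the other gallbladder lines in MMP2 (1380 CPM, next 1.23), ADAMTS5 (23.2, next 0.0725), ADAMTS3 (22.4, next 0.544) and MMP9 (3.29, next 0.389). Also among gallbladder lines were TGBC14TKB in MMP19 (223 CPM, next 34.5) and SNU-308 in MMP10 (10.6 CPM, next 0.466).

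Among extrahepatic lines TFK-1 stood apart in ADAMTS9 (63.0 CPM), ADAMTS1 (9.28) and MMP16 (1.63), and Sk-ChA-1 in MMP1 (5.89) and ADAMTS12 (4.70, next 0). Among metastatic lines the flags were MMP28 in Sk-ChA-1 (240 CPM), ADAMTS14 in HuCCT1 (83.2), MMP9 in HuCCT1 (1.79), ADAMTS1 in Mz-ChA-2 (14.3), ADAMTS20 in Mz-ChA-2 (9.26) and MMP16 in OCUG-1 (9.56).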

How the results depend on the processing

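With DESeq2 in place of edgeR the calls were 5 in the joint site test (1.87% of all genes called), 3 for gallbladder (2.36%), 2 for extrahepatic (1.12%), 4 for intrahepatic (1.63%), 1 for ampullary (0.820%) and 3 for intrahepatic against extrahepatic lines (1.91%), where edgeR gave 0. ADAMTS6 was among them in 3 of these comparisons, and the cause was not tested. Along the score, 6 calls became 3 with repository and 2 with site as a covariate, and 1 with Mz-ChA-2, SNU-245 and HuH28 all left out. Leaving out each line gave 2 to 8 calls: 2 without HuH28, and 3 without each of OZ, SNU-1196, SNU-245 and TGBC2TKB. The intrahepatic count was 0 to 1, with MMP2 called without TGBC2TKB (11.75). MMP2 changed sign in intrahepatic lines without HuH28 (-0.34) and in metastatic against primary lines under DESeq2 (0.58). Of the other alternatives for named differences, 598 kept direction and side of the threshold, 45 lost the call and 8 gained it. Most of the 598 were uncalled before and after, and all 45 losses were calls along the score. There ADAMTS1 was called in 10 of 28 alternatives, ADAMTS16 in 16 of 28 and ADAMTS3 in 15 of 24. ADAMTS6 and MMP2 were called in 25 of 28 each. All 58 level checks stayed within the spread of lines. That spread includes the highest line itself (for ADAMTS2 a standard deviation of 116 CPM), so the check could hardly fail and says little. Without TMM scaling the median gene moved by up to 0.29 log2. No paired analysis was possible because replicate numbers follow accession order only.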
